A study of Mus musculus with 15 samples.

Results

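The genes of the oxidative phosphorylation subunits were examined across 3 treatments that remove or block the use of glutamine (Gln) in mouse pancreatic cancer. Members were chosen by name, with earlier results of these data known. The names covered complex I (Ndufa, Ndufb, Ndufc, Ndufs and Ndufv genes), complex II (Sdha to Sdhd) and complex III (Uqcr genes). They also covered complex IV (Cox4 to Cox8 genes), complex V (Atp5 genes) and the protein-coding genes of the mitochondrial genome. Of 55291 genes in the tables, 114 names matched, 13 of them with a pseudogene suffix (-ps), which were left out. Of the others (88 nuclear and 13 mitochondrial genes), 93 had a mean normalized count of at least 10 in 1 or more of the 3 tables and 87 had it in all 3, while 8 lay under 10 in every table (Cox6b2, Cox6c2, Cox7b2, Cox8b, Cox8c, Ndufa11b, Ndufs6b and mt-Atp8). Cox6c2, Ndufa11b, Ndufs6b and Ndufb4c carry no such suffix and were kept, but they are annotated as processed pseudogenes. Of them only Ndufb4c was tested, as a complex I member and in the tumors only (mean 12.28). Ndufa4 was placed in complex IV, where its protein is now assigned. The related Ndufa4l2 was left in complex I by its name and was tested in the tumors only (mean 155.23).

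All samples came from HY19636, a single tumor cell line from a genetically engineered mouse in which Ptf1a-Cre, active in the pancreas, recombined the driver alleles, and all groups share these alleles. The 9 culture libraries were 3 of control cells, 3 of cells given 25 µM 6-diazo-5-oxo-L-norleucine (DON, a glutamine antagonist) for 24 h and 3 of cells kept for 24 h in medium with no Gln. The 6 tumor libraries came from HY19636 cells grown orthotopically in the pancreas of female B6J mice of 8 to 10 weeks, which received vehicle (3 tumors) or DRP-104 (3 tumors), which releases DON in the body, with doses of 3 mg per kg in 2 cycles of 5 days on and 2 days off, with collection at day 21 after transplantation. Tumors held host cells as well as HY19636 cells. The labels do not say whether the 3 libraries of a group came from separate cultures, so the p-values measure the spread between these samples, which in culture may be technical.

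Oxidative phosphorylation uses complexes I to IV to pass electrons from NADH and succinate to oxygen while protons are pumped across the inner mitochondrial membrane, and complex V, the ATP synthase, uses the returning protons to make ATP. Complexes I, III, IV and V are assembled from nuclear and mitochondrial gene products, whereas complex II, which is also the succinate dehydrogenase of the TCA cycle, is made entirely from nuclear genes. Mitochondrial genes are copied from both strands of a circular genome as long transcripts that are cut into separate RNAs, so neighbouring genes start from the same precursor but can differ in stability. Gln feeds this system through the TCA cycle.

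Some mitochondrial genes share their sequence with nuclear copies, to which reads could also be assigned, so this is shown first. The first 120 bases of mt-Co3, a core subunit of complex IV (GRCm38, chrM:8607-8726, plus strand, coding sequence), were identical to those of Gm28437, an annotated unprocessed pseudogene in the nuclear genome (chr1:24613852-24613971, minus strand). No base is in capitals because no base differs over this stretch.
mt-Co3 and Gm28437: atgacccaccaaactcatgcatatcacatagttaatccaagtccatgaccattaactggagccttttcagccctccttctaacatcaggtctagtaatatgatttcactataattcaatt
Over the whole pseudogene, 783 of 783 aligned bases were the same. The longest GENCODE M21 transcript of mt-Atp8 and of each tested member was split into words of 50 bases. Atp5md and Atp5pb had no transcript under these names, so their shared words were not assessed. Of the words of mt-Co2, mt-Co3, mt-Atp6, mt-Nd3 and mt-Nd4l, 98.0% or more occurred in another annotated gene. For mt-Nd4 the share was 62.2% and for mt-Co1 51.1%. It was 8.2% for mt-Nd2, 7.6% for mt-Nd5 and 0.0% for mt-Nd1, mt-Nd6, mt-Cytb and mt-Atp8. Nuclear members named below with shared words were Ndufs3 (39.7%), Ndufb4 (37.0%), Cox7c (27.9%), Atp5h (23.8%) and Uqcrb (19.2%). Cox7a2l (17.7%), Atp5g2 (14.8%), Cox4i1 (14.7%), Atp5g1 (11.6%) and Cox5a (10.5%) had fewer. The counts of these nuclear genes are less certain, and others had smaller shares.

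The 5 genes with nearly all of their words shared had almost no reads, while mt-Nd4 and mt-Co1 were well counted. Levels per length are given in RPKM, reads scaled to transcript length and library size (SD, n = 3). Some members, among them Atp5md, Atp5mpl and Atp5pb, had no length and are not on this scale. Of those on it, mt-Co1, the catalytic core of complex IV, was highest in control cells at 3141 ± 358. It was followed by mt-Nd1 at 2039.7 ± 239.9 and mt-Cytb at 1342 ± 267. The highest nuclear member on this scale was Atp5b, the catalytic beta subunit of ATP synthase, at 874 ± 48.9. In contrast, mt-Co2 was at 1.24 ± 0.35, mt-Atp6 at 1.07 ± 0.27 and mt-Co3 at 0.70 ± 0.36. mt-Atp8 was also low, at 0.22 ± 0.07, although none of its words occurred in another gene. Values of these 4 genes, and of mt-Nd3 and mt-Nd4l, are therefore uncertain, and the description of single genes below rests mainly on the other 7. Counts and medians of mitochondrial members include each gene that was tested, also the uncertain ones. Whether the shared sequence lowered the counts was not tested. The use of strand in counting is not given in the sources used here, so reads of mt-Nd6, the coding gene on the opposite strand, cannot be told apart from antisense reads.

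**Figure D1:**
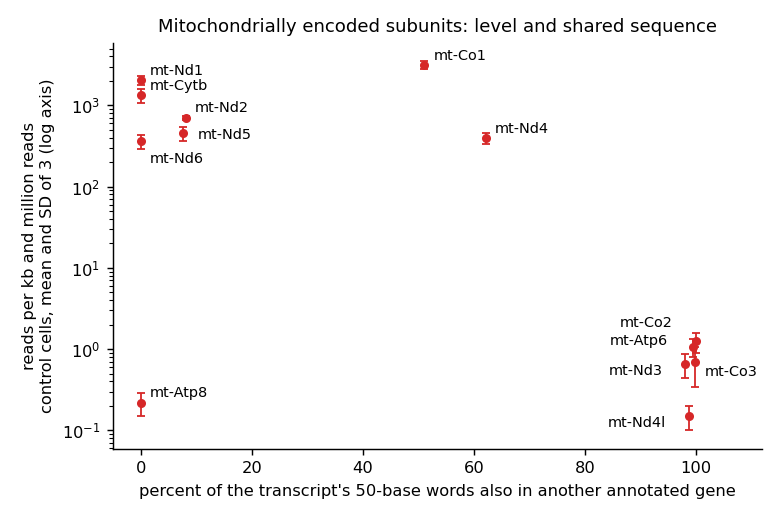
Level in control cells, in RPKM (vertical, log axis; points, means; bars, SD of 3 libraries), against the percentage of 50-base words of the transcript that occur in another annotated gene (horizontal), for the 13 mitochondrially encoded subunits. The 5 genes at 98.0% or more lie at 1.24 or lower, and mt-Atp8 lies as low with 0.0% shared.

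After DON, mitochondrially encoded subunit RNAs were lower while nuclear subunits went both ways. Of 10 mitochondrial members tested, 0 rose and 6 fell, with a median log2 difference of -0.58. Of 78 nuclear members, 23 rose and 21 fell, with a median of -0.02, beside 0.02 over all genes. Calls were made with limma at a Benjamini-Hochberg adjusted p under 0.05 over all 13556 genes tested, of which 68.1% passed, 33.3% higher and 34.7% lower, so the 56.8% of members called (50 of 88) lay under the share over all genes. With libraries scaled to their total reads (RPM), the median of all genes was 0.163 and the members called were 34 higher and 19 lower. Without control library 3 they were 23 higher and 40 lower, so the balance depends on the scaling and on this library.

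mt-Cytb, which encodes cytochrome b, the mitochondrially encoded subunit of complex III, changed most among the mitochondrially encoded subunits. It stood at 46341, 46204 and 59078 normalized counts in the 3 control libraries and at 17618, 20907 and 20065 after DON, so that all DON libraries lay far under all controls. The log2 difference was -1.37 (SE 0.12, limma adjusted p = 1.38e-07).

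The mitochondrial subunits of complex I form its proton-pumping membrane arm. mt-Nd1 stood at 59191, 65526 and 68598 normalized counts in control cells and at 36757, 36885 and 41207 after DON (log2 -0.75, SE 0.10, limma adjusted p = 1.88e-05). mt-Nd4 stood at 16806, 17177 and 19995 and at 10002, 11675 and 11505 (log2 -0.70, SE 0.10, adjusted p = 2.57e-05). Neither gene overlapped between the groups. mt-Nd5 fell as well (log2 -0.60, limma adjusted p = 0.000361), as did mt-Nd6 (-0.55, adjusted p = 0.000662). mt-Nd2 did not pass, at 24497, 23341 and 24280.1 in control cells and 20482, 23723 and 22913 after DON (log2 -0.11, 95% interval -0.30 to 0.09). mt-Co1 of complex IV fell by less (log2 -0.35, adjusted p = 0.0157), and this call was lost under some alternatives, with an adjusted p of up to 0.246.

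The mitochondrial ribosomal RNAs moved the other way in the same libraries. mt-Rnr1, the small subunit rRNA, stood at 10928, 8063 and 7751 normalized counts in control cells and at 74858, 39724 and 80136 after DON (log2 2.82, SE 0.21, limma adjusted p = 4.01e-08). mt-Rnr2, the large subunit rRNA, rose by 2.16 on the log2 scale (adjusted p = 1.62e-07). The lowest DON library of mt-Rnr1 was still far above all controls. The rRNAs took 0.351 ± 0.117% of reads after DON (SD, n = 3) and 0.0530 ± 0.007% in control cells. How ribosomal RNA was removed or RNA selected before sequencing is not given in the sources used here, and its part in these values was not tested.

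**Figure D2:**
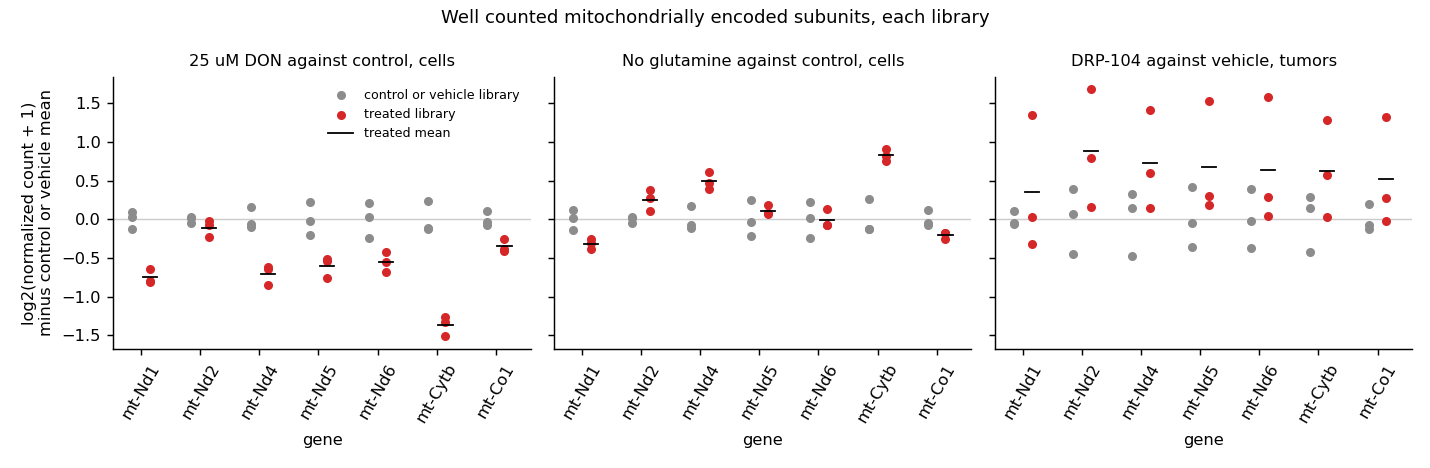
Log2(normalized count + 1) of the 7 well counted mitochondrially encoded subunits in each library, minus the mean of the control or vehicle libraries (vertical), by gene (horizontal), in the 3 treatments; grey points, control or vehicle; red points, treated; lines, treated means. mt-Cytb lies at -1.37 after DON and at 0.83 without Gln, and in the tumors 1 DRP-104 library lies above the others.

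The counts of nuclear genes called after DON varied between the complexes, in lists of 4 to 35 genes. Complex I had 14 higher and 4 lower of 35 (median log2 0.18) and complex III 4 higher and 2 lower of 8 (0.26). Complex IV had 3 higher and 2 lower of 14 (-0.05), complex II 0 higher and 2 lower of 4 (-0.13) and complex V 2 higher and 11 lower of 17 (-0.27). Under RPM the medians of complexes II and IV turned positive, at 0.014 and 0.094, while complex V stayed the lowest at -0.128. Of all genes 68.1% were called, 33.3% higher and 34.7% lower. The share called was 51.4% in complex I and 35.7% in complex IV, under that of all genes, as was that of complex II. It was 75.0% in complex III and 76.5% in complex V, above that of all genes. Complex differences were not tested as such, so these counts do not show that the complexes differ.

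In complex I, Ndufa6, an accessory subunit, rose most, from 1748, 1635 and 1532 normalized counts in control cells to 3445, 3669 and 3497 after DON (log2 1.11, SE 0.09, limma adjusted p = 9.59e-08). Ndufb8, an accessory subunit of the membrane arm, fell most, from 3198, 2789 and 2566 to 1409.8, 1429 and 1319.7 (log2 -1.03, SE 0.10, adjusted p = 6.34e-07). Both were apart from their controls in every library. Of the nuclear core subunits, which carry electrons from NADH to quinone, Ndufs3 (log2 0.56), Ndufv1 (0.35) and Ndufs7 (0.27) rose and Ndufs1 (-0.58) fell, with limma adjusted p of 0.000323, 0.00783, 0.0234 and 7.02e-05. Of the 50-base words of Ndufs3, 39.7% occurred in another gene, so its count is less certain. Ndufs8 (-0.08) and Ndufv2 (0.01) did not pass.

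Complex III held a large nuclear rise beside the fall of mt-Cytb. Uqcrq, a small subunit that binds cytochrome b (GRCm38, chromosome 11, 53427922 to 53430831, minus strand), went from 5159.8, 4628 and 3898 normalized counts to 13614, 13055 and 12185 (log2 1.51, SE 0.10, limma adjusted p = 1.81e-08). Uqcr11, another small subunit, fell from 3539, 3303 and 2884 to 1924, 1822 and 1658 (log2 -0.85, adjusted p = 5.17e-06). Uqcrfs1, the Rieske iron-sulfur protein, rose by 0.38 (adjusted p = 0.00158).

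In complex II, the succinate dehydrogenase, the iron-sulfur subunit Sdhb fell (log2 -0.40, limma adjusted p = 0.00365). The membrane anchor Sdhd fell by 0.24 (adjusted p = 0.0347, up to 0.437 under the alternatives). The flavoprotein Sdha, at 0.09, and the anchor Sdhc, at -0.02, did not pass.

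In complex IV, Cox7a2l, which takes part in joining complexes III and IV, rose from 7259, 6685 and 5607 normalized counts to 11482, 11656 and 10982 (log2 0.81, SE 0.10, limma adjusted p = 6.61e-06). Cox8a fell (log2 -0.32, adjusted p = 0.0123, up to 0.235 under the alternatives), and Cox4i1 (0.21) and Cox6a1 (-0.07) did not pass. Cox6a2, the isoform of heart and skeletal muscle, stood at 7.55, 0 and 0 normalized counts in control cells and at 59.7, 72.0 and 38.6 after DON. Its log2 difference of 4.78 (limma adjusted p = 8.69e-05) depends on the pseudocount and lay between 2.44 and 5.81 over the alternatives. Per length it stayed low, at 2.88 ± 0.84 RPKM after DON against 542 ± 28.4 for Cox6a1.

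Subunit c of ATP synthase, the rotor ring protein, is encoded by 3 genes whose mature products are the same, and these did not move alike. Their promoters, the 250 bases before the RefSeq start site (GRCm38.p6, minus strand), are shown because the genes differed in direction. Capitals mark the palindromic site that matches the motif of NRF1, a regulator of nuclear genes for mitochondrial proteins. The printed stretches lie at chr11:96075632-96075881, chr15:102671048-102671297 and chr2:73911327-73911576. In GENCODE M21 Atp5g2 extends to base 102672352, so its stretch lies within the annotated gene and not before it. Atp5g1 extends to base 96075670, so its stretch overlaps the gene in part, and Atp5g3 ends at base 73911326, before its stretch.
Atp5g1: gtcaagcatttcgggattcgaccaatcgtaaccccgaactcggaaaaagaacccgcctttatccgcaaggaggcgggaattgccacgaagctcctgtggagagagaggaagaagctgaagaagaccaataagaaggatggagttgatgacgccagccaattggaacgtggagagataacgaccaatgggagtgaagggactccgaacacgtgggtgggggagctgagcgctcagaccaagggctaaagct
Atp5g2: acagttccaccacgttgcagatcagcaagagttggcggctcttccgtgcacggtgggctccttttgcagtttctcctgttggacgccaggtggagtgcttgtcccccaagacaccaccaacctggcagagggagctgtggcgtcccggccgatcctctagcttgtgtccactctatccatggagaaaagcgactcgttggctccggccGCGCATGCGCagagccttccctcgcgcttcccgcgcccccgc
Atp5g3: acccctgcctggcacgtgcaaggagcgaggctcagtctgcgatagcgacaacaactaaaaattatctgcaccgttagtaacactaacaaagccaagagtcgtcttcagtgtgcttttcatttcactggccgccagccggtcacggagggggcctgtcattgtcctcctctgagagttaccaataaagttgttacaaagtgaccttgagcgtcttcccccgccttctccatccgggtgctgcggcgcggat
The match of Atp5g2 lies at bases -42 to -33 from the start, Atp5g3 has one at bases 12 to 21 after it, outside the printed stretch, and Atp5g1 has none between 250 bases before and 50 after the start. On either strand of that window, 17 of 65 nuclear members with a RefSeq promoter (26.2%) held the motif, against 5.2% of 27025 genes. Members with it were 6 higher and 6 lower of 17 after DON (median log2 0.09). Those without it were 11 higher and 13 lower of 48 (-0.05). Without Gln the counts were 1 higher and 6 lower with it, and 7 higher and 24 lower without it. Other motifs were searched as well. That of ETS factors was in 26.2% of members against 9.9% of all genes, and that of YY1 in 10.8% against 1.6%. CCAAT was in 43.1% against 41.1%, and TGATGNAA in 0.0% against 4.5%.

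After DON, Atp5g2 rose from 6522, 6509 and 4953 normalized counts to 7716, 8025 and 7367 (log2 0.37, limma adjusted p = 0.00743). Atp5g3 fell from 10333, 9849.8 and 8679 to 5789.5, 5863 and 5609.5 (log2 -0.74, adjusted p = 5.72e-06), and Atp5g1 fell from 4341, 4242 and 3565 to 2921, 2732 and 2635 (log2 -0.55, adjusted p = 0.000203). Each of these genes had its DON libraries apart from its controls. Elsewhere in complex V, Atp5h of the peripheral stalk fell most (log2 -0.78, limma adjusted p = 5.81e-06), Atp5md rose (log2 0.39) and Atp5b did not pass (-0.02, 95% interval -0.25 to 0.21).

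Without Gln nuclear members leaned lower, while more mitochondrial members were called higher than lower. Of 10 mitochondrial members 4 rose and 1 fell (median log2 0.11). Among the rises, mt-Co3 is uncertain and mt-Nd2 lost its call under some alternatives, as did the fall of mt-Nd1. Of 78 nuclear members 12 rose and 36 fell (median -0.19), beside a median of 0.01 over all genes. Of all 13390 genes tested 69.4% passed, 34.5% higher and 34.9% lower, and of the members 60.2% (53 of 88). With libraries scaled to their total reads (RPM), the median of all genes was 0.108 and the members called were 21 higher and 30 lower.

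mt-Cytb again moved far, now upward, from 43673, 43643 and 56976 normalized counts in control cells to 84231, 89671 and 80510 without Gln (log2 0.83, SE 0.11, limma adjusted p = 2.82e-05). mt-Nd4 rose from 15839, 16225 and 19283 to 23699, 26147 and 22371 (log2 0.49, adjusted p = 0.000595). Neither overlapped with the controls. mt-Nd2 rose (log2 0.25, limma adjusted p = 0.023, up to 0.145 under the alternatives) and mt-Nd1 fell (-0.31, 0.00979, up to 0.733). mt-Nd5 (0.11), mt-Nd6 (-0.00) and mt-Co1 (-0.20) did not pass. The rise of mt-Co3 (log2 1.13) rested on 23.7, 7.08 and 20.7 against 29.2, 39.2 and 36.0 normalized counts and is uncertain. Of the rRNAs, mt-Rnr1 fell (log2 -0.85, limma adjusted p = 0.00166) and mt-Rnr2 did not pass (0.16).

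Every nuclear complex had a median under that of all genes. Complex I had 6 higher and 13 lower of 35 (median log2 -0.10), complex II 0 higher and 2 lower of 4 (-0.21), complex III 3 higher and 4 lower of 8 (-0.13), complex IV 2 higher and 7 lower of 14 (-0.23) and complex V 1 higher and 10 lower of 17 (-0.45). Under RPM the median of complex I was 0.007, and those of the other complexes stayed negative.

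In complex I, Ndufs4, an accessory subunit of the peripheral arm, rose most, from 1355, 946 and 1229 normalized counts to 2377, 2108 and 2132 (log2 0.92, SE 0.12, limma adjusted p = 2.49e-05). Ndufv3 fell most, from 1972, 1913 and 1610.5 to 1022, 1023 and 927 (log2 -0.88, adjusted p = 7.09e-06). Of the core subunits, Ndufs7 (0.33) and Ndufs1 (0.25) rose, Ndufs8 (-0.34) and Ndufv2 (-0.43) fell, and Ndufs3 (-0.02) and Ndufv1 (0.21) did not pass. The rise of Ndufs1 was lost under some alternatives, with an adjusted p of up to 0.0905.

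In complex III, Uqcrfs1 fell from 4891, 4604 and 4358 normalized counts to 2694, 2966 and 2699 (log2 -0.73, SE 0.08, limma adjusted p = 6.39e-06), and Uqcrb rose (0.69, 2.44e-05). In complex II, Sdhc fell (log2 -0.39) and so did Sdhb (-0.30, adjusted p up to 0.0875 under the alternatives), while Sdha (-0.03) and Sdhd (-0.12) did not pass. In complex IV, Cox4i1 fell (-0.55, limma adjusted p = 0.000164), and the muscle isoform Cox7a1 stood at 75.8, 62.5 and 45.1 normalized counts in control cells and between 12.5 and 32.0 without Gln (log2 -1.63, adjusted p = 0.00207).

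In complex V all 3 subunit c genes fell. Atp5g2 went from 6146, 6148 and 4776 normalized counts to 2791, 2714 and 2774 (log2 -1.03, SE 0.10, limma adjusted p = 1.47e-06), and the log2 differences of Atp5g3 and Atp5g1 were -0.83 and -0.50. Atp5pb of the peripheral stalk was the only complex V member called higher, from 10809, 9220 and 10247 to 14269, 13922 and 14037 (log2 0.48, adjusted p = 0.000193). Atp5b again did not pass (-0.06).

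**Figure D3:**
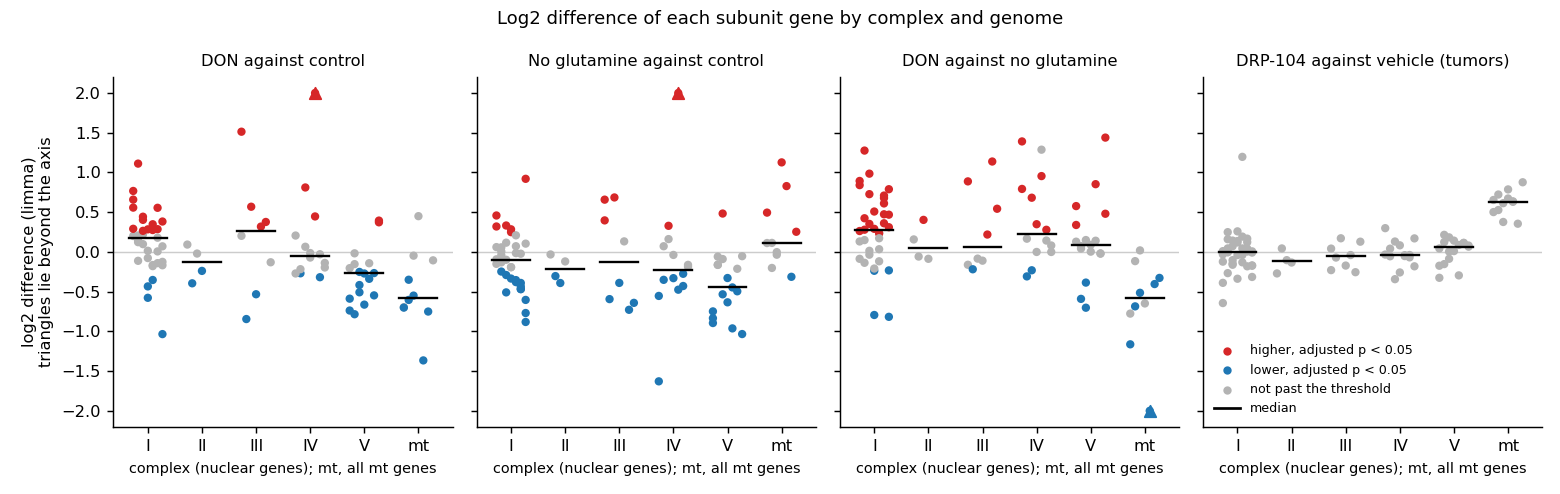
Log2 difference of each tested subunit gene (vertical, limma) by complex for nuclear genes and for the mitochondrially encoded genes together (horizontal); red, higher; blue, lower; grey, not past an adjusted p of 0.05; lines, medians; triangles, values beyond the axis. The mitochondrial median is -0.58 after DON, 0.11 without Gln and 0.63 on DRP-104, where no gene passed.

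DON-treated and Gln-free cells were compared directly, on reads scaled together, because their comparisons with control cells share the 3 control libraries. Mitochondrial members were lower in DON (0 higher and 6 lower of 10, median log2 of DON minus no Gln -0.58) and nuclear members mostly higher (36 higher and 10 lower of 78, median 0.17), beside -0.01 over all genes. Of all 13514 genes tested 63.3% differed, 31.0% higher and 32.3% lower in DON, and of the members 59.1%. By complex the nuclear counts were 20 higher and 4 lower of 35 in complex I, 1 higher and 0 lower of 4 in complex II, 4 higher and 1 lower of 8 in complex III, 6 higher and 2 lower of 14 in complex IV and 5 higher and 3 lower of 17 in complex V.

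On this joint scale mt-Cytb stood at 17298, 20608 and 19725 normalized counts in DON and 85198, 90754 and 81465 without Gln (log2 -2.16, SE 0.10, limma adjusted p = 2.5e-10). Atp5g2 stood at 7576, 7911 and 7242 and 2823, 2747 and 2807 (log2 1.44, adjusted p = 4.86e-09). Both were apart in every library, in opposite directions. Ndufa6 (1.28) and Uqcrfs1 (1.14) were also higher in DON, and mt-Nd4 (-1.16), Ndufs4 (-0.82), Ndufs1 (-0.79) and Atp5pb (-0.70) lower. Against control cells, 6 members were called higher after DON and lower without Gln (Atp5g2, Cox7c, Ndufa2, Ndufb4, Ndufc2 and Uqcrfs1) and 4 the reverse (Atp5pb, Ndufs1, mt-Cytb and mt-Nd4). Of these 10, 4 lost a call under some alternatives: Atp5pb after DON (adjusted p up to 0.64), Ndufa2 after DON (0.0858), Ndufs1 without Gln (0.0905) and Ndufb4 both after DON (0.0557) and without Gln (0.199, in 10 settings). Of the words of Ndufb4, 37.0% occurred in another gene.

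**Figure D4:**
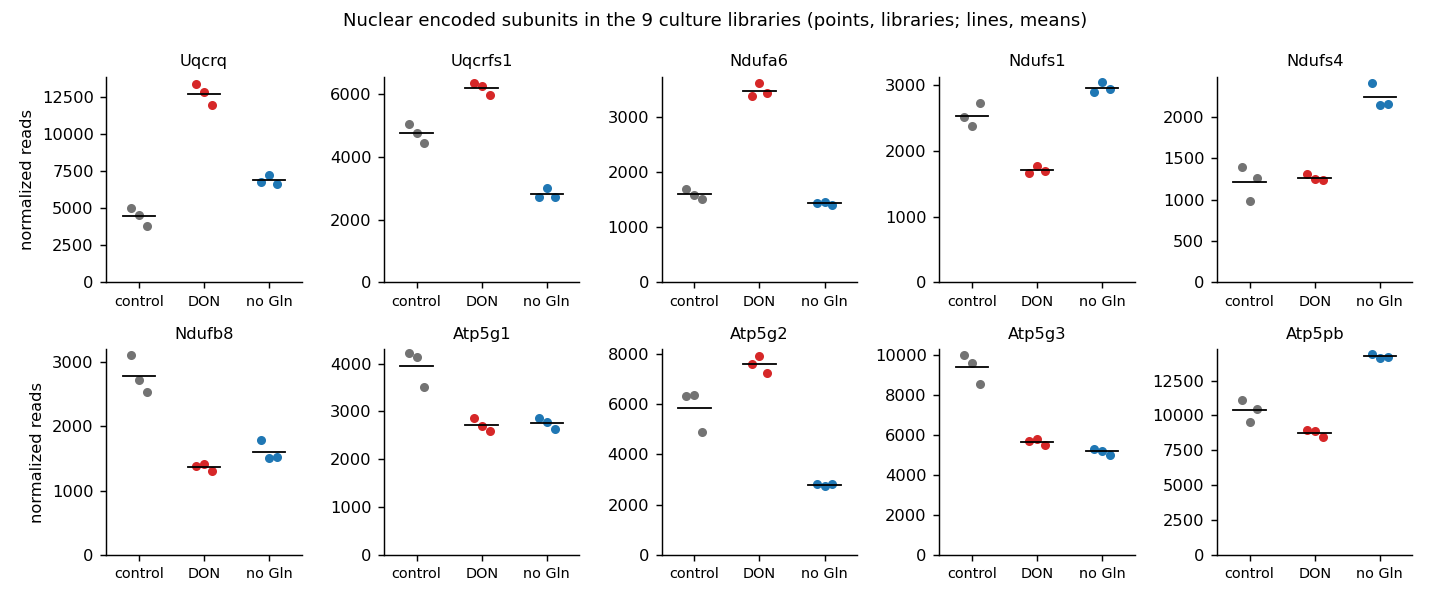
Reads of 10 nuclear subunit genes in each of the 9 culture libraries, scaled together by size factors (vertical, from 0), by group (horizontal); points, libraries; lines, group means. Atp5g2 and Uqcrfs1 lie above control after DON and below it without Gln, while Atp5g1 and Atp5g3 lie below it in both.

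As a share of all reads, which does not use the size factors, the mitochondrially encoded members made up 1.06 ± 0.138% (SD, n = 3) in control cells, 0.798 ± 0.051% after DON and 1.20 ± 0.045% without Gln. The DON libraries (0.747% to 0.849%) lay under all controls (0.980% to 1.22%), and the Gln-free libraries (1.17% to 1.25%) overlapped with them. Control library 3 was the deepest, at 48155949 reads against 25224177 to 35420749 in the other culture libraries, and had the highest control share. Nuclear members made up 1.15 ± 0.067% in control cells, 1.23 ± 0.036% after DON and 1.06 ± 0.009% without Gln.

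**Figure D5:**
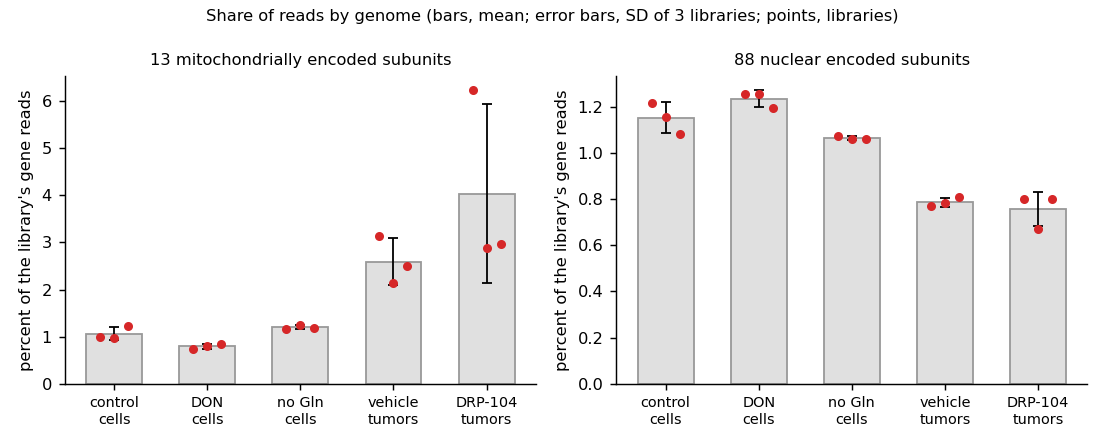
Percentage of all gene reads of a library (vertical, from 0), by group (horizontal). Left, the 13 mitochondrially encoded subunits, and right, the 88 nuclear members, which include annotated processed pseudogenes. Bars are means, error bars the SD of 3 libraries and points libraries. The mitochondrial share is lowest after DON (mean 0.798%) and highest in DRP-104 tumor 1 (6.23%).

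Genes that build the complexes or serve the mitochondrial genome were counted over the same fits, where 33.3% of all genes were higher and 34.7% lower after DON and 34.5% higher and 34.9% lower without Gln. After DON 31 higher and 4 lower of 44 changed (median log2 0.46), with Sdhaf3, a complex II assembly factor, the largest rise (log2 2.36) and Acad9, a complex I assembly factor, the largest fall (-0.69). Without Gln 24 higher and 11 lower of 45 changed (median 0.43), from Cox20 (3.44) to Pet100 (-1.48), both complex IV assembly factors. Of the genes for replication and transcription of mitochondrial DNA, 16 higher and 0 lower of 16 changed after DON, including the transcription factor Tfam (log2 0.41), and 11 higher and 1 lower of 16 without Gln (Tfam 0.55). They were higher after DON in the same libraries in which mitochondrial coding RNAs were lower.

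The shares called in the next 3 lists after DON, 70.6%, 61.5% and 64.3%, lay near the 68.1% of all genes. Genes for processing of mitochondrial RNA were 6 higher and 6 lower of 17 after DON and 6 higher and 2 lower of 17 without Gln. Hsd17b10, a subunit of mitochondrial RNase P, fell in both (log2 -1.08 and -1.23). TCA cycle enzymes were 2 higher and 6 lower of 13 after DON and 2 higher and 6 lower of 13 without Gln, with fumarate hydratase Fh1 the largest fall (-0.98 and -0.87). Genes for electron carriers and quinone synthesis were 6 higher and 3 lower of 14 and 6 higher and 4 lower of 14. Of the regulators, 4 higher and 1 lower of 10 changed after DON and 8 higher and 1 lower of 10 without Gln. Among them Myc rose (1.03 and 2.49) and Esrra, a nuclear receptor that drives oxidative genes, fell (-1.15 and -0.45).

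In the tumors no member passed on DRP-104. With limma 0 of 92 members and 0.0% of all 15454 genes were called, and at an unadjusted p under 0.05 it was 0 members and 5.01% of all genes, with edgeR 0 members adjusted and 1 unadjusted and with DESeq2 0 and 6 (DESeq2 called 60 of all genes). All 12 mitochondrial members were higher on average (log2 0.35 to 0.88, median 0.63) and the nuclear median was -0.01. The 95% interval of mt-Cytb ran from -0.25 to 1.51, so neither a fall nor a rise was told apart from no change at this spread. In whole tumors, fewer cells of a type and less RNA per cell cannot be told apart.

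The mitochondrial values rested largely on 1 tumor. mt-Nd1 stood at 65032, 58481 and 58111 normalized counts in vehicle tumors and 153867, 61851 and 48579 on DRP-104 (log2 0.35, SE 0.42), and without DRP-104 tumor 1 its difference was -0.141. mt-Cytb stood at 91436, 55977 and 82814 and 183570.3, 76811 and 111594 (log2 0.63, SE 0.38). DRP-104 tumor 2 lay within the vehicle range in both genes, while tumor 3 lay below that range in mt-Nd1 and above it in mt-Cytb. Of the mitochondrial members tested, only mt-Nd1 turned negative when 1 tumor was left out. The lowest differences of the others ran from 0.037 (mt-Nd4l) to 0.476 (mt-Nd2). The median over the mitochondrial members without that tumor was 0.222. Its mitochondrial share of reads was 6.23%, against 2.89% and 2.98% in the other DRP-104 tumors and 2.15% to 3.13% in vehicle tumors.

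A separate FPKM table of the tumors gave the opposite sign for all 12 mitochondrial genes, with a median log2 difference of -1.071. Its first DRP-104 column summed to 1664.1 FPKM over the heavy-strand genes. The other DRP-104 columns, at 12554.1 and 12767.3, also lay under all vehicle columns, at 14132.2 to 15488.3. In the first DRP-104 column mt-Nd6 of the light strand was at 823.5, against 543.0 to 764.5 in the other 5 columns. The columns of this table could not be tied to single tumors, so the direction of the mitochondrial genes on DRP-104 depends on which table is read.

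Among nuclear members, 7 did not overlap between the tumor groups and all 7 were lower on DRP-104, with 2 mitochondrial members higher, or 9 of 92 against 10.6% of all genes (4.83% higher, 5.75% lower). The 2 mitochondrial members were mt-Co2 and mt-Co3, whose counts are uncertain, and none of the 7 well counted mitochondrial genes was apart. Sdha stood at 3075, 2858 and 2891 normalized counts in vehicle tumors and 2150.5, 2477 and 2716 on DRP-104 (log2 -0.27, SE 0.14, limma adjusted p = 0.916). Cox5a, a matrix-side subunit of complex IV, was at 1272, 1344 and 1205 and 969, 871 and 1195 (log2 -0.34, adjusted p = 0.916). Atp5g3 was at 2931, 3174 and 2816 and 2282, 2112 and 2759.9 (log2 -0.33, adjusted p = 0.916). The medians by complex were -0.00, -0.12, -0.055, -0.04 and 0.07 for complexes I to V. The summed level of 8 fibroblast markers was 19927 to 35222 normalized counts on DRP-104 and 41770 to 85656 in vehicle tumors. That of 6 endothelial markers was 1323.6 to 2070.6 on DRP-104 and 2126.3 to 2576.2 in vehicle tumors. DRP-104 tumor 3 held 1344 for 8 T cell markers against 47.3 to 100.1 in the others. Vehicle tumor 2 held 428.6 for 8 muscle markers against 1.8 to 20.3 in the others. Vehicle tumor 3 held 2893.5 for 10 acinar markers against 164.4 to 1054.4 in the others. DRP-104 tumor 1, which had the highest mitochondrial share, held 782.8 for 6 islet markers against 84.0 to 331.1 in the others. Vehicle tumor 2 held 682.8 for 6 adipocyte markers against 72.7 to 324.5 in the others. The sum of 6 neutrophil markers ran from 32.3 to 574.5 on DRP-104 and from 77.0 to 498.7 in vehicle tumors. The part of these cell types in the member values was not tested. Of 8 epithelial markers, all were at 10 or more in both tumor groups. In culture their sum was 393734 to 511623 in control cells and 117030 to 125292 after DON, and on the scale of the Gln-free comparison it was 379727 to 482168 in control cells and 158398 to 173783 without Gln. Its part in the culture results was not tested.

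The effect in tumors (DRP-104 minus vehicle) differed from that in cells (DON minus control) for 20 of 91 members, 11 with a higher and 9 with a lower value in tumors, or 22.0% against 33.1% of all 15070 genes (19.1% higher, 14.0% lower). The 9 lower ones included Cox6a2, which was almost absent in tumors (mean normalized count 0.15) and was tested because of its counts after DON. Dose, time and setting differ between these experiments. The largest nuclear difference among well expressed genes was that of Uqcrq, at -1.74 (SE 0.19, limma adjusted p = 2.48e-05). For mt-Cytb it was 2.00 (adjusted p = 0.00152), which shares the limits of the tumor values of the mitochondrial genes.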

How the data were processed

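RNA-seq libraries of 9 cultures and 6 tumors were used. The deposited culture and tumor tables hold a normalized signal per gene, which the authors made by dividing read counts by size factors, and a deposited FPKM table covers the tumors. The submitters' processing notes name CASAVA, HISAT2, STAR 2.5, DESeq2 and GRCm39 with no role, although of 224 listed genes in the FPKM file 160 had the same start and end as in GENCODE M21 (GRCm38). Library kit and strand are not given in the sources used here. Fold changes and p-values of the authors in the tables were not used.

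Genes with a mean of at least 10 were tested on log2(value + 1) with limma 3.58.1 in R 4.3.3, with Benjamini-Hochberg adjustment over all genes tested, so differences of low genes are understated. Whole reads were recovered for at least 99.99% of values per library (tolerance 0.0051), 16339957 to 48155949 per library; edgeR 4.0.16 on these reads called 9229 genes after DON, 9253 without Gln and 0 on DRP-104. DON and Gln-free cells were compared in a joint fit of recovered reads scaled together. Tumors and cells were compared in a joint fit of the deposited normalized values, which were scaled separately for tumors and cells. Binomial intervals of read shares cover counting error only. The FPKM values were compared on log2(FPKM + 0.1). Control columns of the culture tables carry a vehicle name and were assigned to the control group by the title of their table, not by a sample name, and FPKM columns were assigned by group only. Alternatives were other tools, scalings, filters and pseudocounts, a replicate block and leaving out each library. Scripts were tested on simulated data.

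Named genes were all mitochondrial members, the highest and lowest called nuclear member per complex without overlap (by value in tumors), complex II, core subunits of complex I and Atp5b, tissue isoforms, subunit c, members with opposite calls or the 3 largest differences each way between DON and no Gln, and the extremes of each pathway list. Tfam and, in the tumors, markers were named outside this rule. Some values are not reported here. The members and lists were chosen with earlier results of these data known.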

Additional observations from a re-analysis of the deposited data

Results flagged for a closer look

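For 14 named subunit genes the effect in tumors (DRP-104 minus vehicle) differed from that in cells (DON minus control) by a limma interaction contrast. Each is given with the log2 difference of the effects, tumors minus cells, and its Benjamini-Hochberg adjusted p over all genes. The nuclear genes with a higher value in tumors were Atp5g1 (0.66, 0.0239), Atp5h (1.00, 0.00326), Ndufb8 (0.77, 0.00453), Ndufs1 (0.58, 0.0124) and Uqcr11 (0.77, 0.0204). The nuclear genes with a lower value in tumors were Cox6a2 (-5.08, 0.0051), Cox7a2l (-0.68, 0.013), Ndufa6 (-0.97, 0.00157), Ndufs3 (-0.68, 0.0233), Ndufv1 (-0.66, 0.0231) and Uqcrq (-1.74, 2.48e-05). Cox6a2 was almost absent in tumors, at 0.89, 0 and 0 normalized counts in vehicle tumors and 0 in each DRP-104 tumor. It passed the filter through its counts after DON, so its value is not a measured tumor effect. The mitochondrial genes were mt-Cytb (2.00, 0.00152), mt-Nd4 (1.42, 0.0114) and mt-Nd5 (1.28, 0.032).

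Over the alternatives the adjusted p reached 0.186 for Cox6a2, 0.0782 for Ndufs1, 0.064 for Atp5g1, 0.0614 for Ndufs3, 0.0591 for Ndufv1, 0.0584 for Uqcr11 and 0.0919 for mt-Nd5, so the calls of these 7 genes were lost in some settings. The tumor values of the mitochondrial genes had the opposite sign in the FPKM table. Dose, time and setting differed between the experiments, so these cannot be told apart from the difference between tumors and cells.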

How the results depend on the processing

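The 5 counts of members called stayed within 1.5 times the main count under every alternative but 1: at a threshold of 0.01, 9 members differed between tumors and cells. Leaving out 1 library gave 37 to 63 members after DON, 46 to 64 without Gln (the highest in both cases without control 3), 46 to 62 between DON and no Gln, 14 to 28 between tumors and cells and 0 on DRP-104. Replicate numbers did not pair the libraries: the correlation of deviations of same-numbered libraries ran from 0.003 to 0.033 for DON and control and from -0.032 to 0.027 for no Gln and control, -0.365 to 0.038 in the tumors and -0.025 to 0.071 for DON and no Gln. With the replicate number as a block, 49, 50, 0, 52 and 19 members were called after DON, without Gln, on DRP-104, between DON and no Gln and between tumors and cells.

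Scaling moved the medians. With RPM (RPM of nuclear reads in brackets) the medians after DON were 0.125 (0.125) over nuclear members and 0.322 (0.323), 0.014 (0.014), 0.404 (0.405), 0.094 (0.094) and -0.128 (-0.127) for complexes I to V, and without Gln they were -0.083 (-0.081) and 0.007 (0.009), -0.106 (-0.104), -0.023 (-0.021), -0.125 (-0.123) and -0.341 (-0.339). The nuclear median of tumors minus cells was -0.156 (-0.134), and the differing members were then 6 higher and 20 lower. With quantile normalization complexes II, III and IV after DON were at 0.033, 0.365 and 0.109, mitochondrial members without Gln at 0.291, nuclear members of DON minus no Gln at 0.278 and of tumors minus cells at -0.134. With all genes of a mean of at least 1, the mitochondrial median of DON minus no Gln was -0.405. Leaving out 1 library gave -0.411 to -0.229 for complex V after DON, -0.168 to -0.023, -0.135 to 0.051 and -0.093 to 0.167 for complexes II, III and V on DRP-104 and 0.715 to 1.426 for mitochondrial members of tumors minus cells. The causes were not tested.

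The FPKM table gave -1.071 for the mitochondrial median on DRP-104 and -0.166 for complex V. By gene it gave -1.181 for mt-Atp6, -1.160 for mt-Co1, -0.838 for mt-Co2, -0.982 for mt-Co3, -1.464 for mt-Cytb, -1.387 for mt-Nd1, -1.421 for mt-Nd2, -0.870 for mt-Nd3, -1.482 for mt-Nd4, -0.826 for mt-Nd4l, -0.437 for mt-Nd5 and -0.117 for mt-Nd6. mt-Co1 was at -0.000 with quantile normalization, and mt-Nd1 lay between -0.141 to 0.690 when 1 tumor was left out, lowest without DRP-104 tumor 1. Over 113 named results, 1839 alternative values kept direction and side of the threshold, 122 kept direction only and 14 turned direction. Using mitochondrial members with under 10% of words shared, chosen after seeing the data, gave medians of -0.605 after DON and 0.113 without Gln. Tumors had 16339957 to 20687784 reads, fewer than the cultures.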
